A study of Homo sapiens with 4 samples.

Results

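The immediate early genes described here are the EGR zinc finger factors, the NR4A orphan nuclear receptors and the IER genes, outside the AP-1 family. They were taken from a list of 10 genes, and the members were all probe sets whose platform annotation names exactly 1 of them. This gave 27 of 44988 probe sets naming a single gene and 8 of 18132 genes. These were EGR1 with 6 probe sets, EGR3 with 4, NR4A1 with 7, NR4A2 and NR4A3 with 3 each, IER5 with 2, and IER2 and IER3 with 1 each. The other listed genes, EGR2 and BTG2, were not analysed here.

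Expression was measured in total RNA of cells labelled as MDA-MB-231, a human triple-negative breast cancer line, on 2 arrays with a stably integrated control shRNA and 2 arrays with a stable shRNA against ELK3 (named ELK3 KD here, after the labels). The marker genes given below put the identity of the cells on the ELK3 shRNA arrays in doubt, so an effect of the knockdown and a difference between cells cannot be told apart in any value of this comparison. Both groups were made by retroviral transduction of a GFP- and luciferase-tagged derivative, per the paper's methods, and were grown in medium with 10% fetal bovine serum. Neither source describes serum starvation or a timed stimulation, so the values are those of cultures in full medium. The labels call the arrays of a group biological repeats 1 and 2 (replicates 1 and 2), without saying whether these were separate lines or separate cultures of 1 line, and the methods, which describe several control and knockdown lines, do not tie the arrays to them, so p-values measure the spread between these arrays only. With 2 arrays in each group, an exact permutation test (two-sided) reaches no p below 0.33, and the number of arrays limits the precision of every value.

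Immediate early genes are transcribed within minutes of serum or growth factor addition, without new protein synthesis, and their mRNAs are short-lived. Many carry CArG boxes (a run of A and T between CC and GG), the binding sites of serum response factor (SRF), at which a ternary complex factor (ELK1, ELK3 or ELK4) binds beside SRF and passes on signals of the ERK kinases. EGR proteins are zinc finger activators that bind GC-rich sites. NR4A proteins are nuclear receptors that act without a known physiological ligand. IER2 and IER5 encode related proteins that bind the phosphatase PP2A. IER3 is known as a stress and NF-kappaB responsive regulator of cell survival.

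Because CArG boxes are the sites through which ELK3 and SRF are known to act on this class, the upstream sequence of EGR1 is shown beside those of IER2 and IER5. The sequences are the 250 bases before the annotated gene start in RefSeq (GRCh38.p14), on the plus strand for all 3 genes: chr5:138465229-138465478 for EGR1, chr19:13150161-13150410 for IER2 and chr1:181088450-181088699 for IER5. Capitals mark a CArG box (in EGR1) or a match to CCGGAA, an ETS-type site, on either strand (in IER2 and IER5).
EGR1: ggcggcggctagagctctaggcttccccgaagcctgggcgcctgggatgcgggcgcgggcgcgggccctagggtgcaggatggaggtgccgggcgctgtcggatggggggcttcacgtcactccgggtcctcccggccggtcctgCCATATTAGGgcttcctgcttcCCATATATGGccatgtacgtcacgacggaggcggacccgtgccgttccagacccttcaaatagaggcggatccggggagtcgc
IER2: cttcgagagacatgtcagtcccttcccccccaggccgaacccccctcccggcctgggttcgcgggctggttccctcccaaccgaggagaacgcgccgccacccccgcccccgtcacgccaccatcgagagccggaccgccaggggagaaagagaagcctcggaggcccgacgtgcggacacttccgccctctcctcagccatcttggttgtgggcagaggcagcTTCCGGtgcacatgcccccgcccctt
IER5: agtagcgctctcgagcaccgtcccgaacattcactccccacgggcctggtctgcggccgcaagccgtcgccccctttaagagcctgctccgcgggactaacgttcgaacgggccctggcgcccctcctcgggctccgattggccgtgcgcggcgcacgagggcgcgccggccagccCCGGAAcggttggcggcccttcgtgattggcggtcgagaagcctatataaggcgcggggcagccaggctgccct

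EGR1 held 2 CArG boxes in this window, CCATATTAGG beginning 105 bases and CCATATATGG beginning 83 bases before the start. Windows of 300 bases (250 before to 50 after the start) were at hand for 7 of the 10 listed genes, and a CArG box was found in those of EGR1 and EGR2 only. Of all 35116 windows of that length, 1.29% held a CArG box and 17.2% held CCGGAA on either strand. CCGGAA was found in IER2, in IER5 and in 1 of the 2 windows of NR4A1. Neither motif was found in the window of NR4A3. Only the exact string CCGGAA was searched, so ETS sites of other sequence, in EGR1 or elsewhere, were not counted. The absence of a match in EGR1 therefore does not show that it lacks an ETS site. TGACGTCA (a cyclic AMP response element), found in 1.85% of all windows, and the EGR sites GCGGGGGCG and GCGTGGGCG, found in 5.07% and 0.795%, were also searched on both strands. The only match to these among the 7 listed genes was GCGGGGGCG in the window of BTG2. These strings and the CArG pattern were also matched exactly, so sites that differ by a base were not counted. The lack of a match therefore does not show that a gene lacks such a site. A match is a string of letters and not a measured binding site, and sequence outside the windows was not searched.

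The deposited values were log2 intensities, which the authors had computed by RMA, a procedure that corrects background, normalizes the arrays to each other and gives 1 value a probe set. Array medians were between 6.23 and 6.27. No detection calls came with them, and the 95th percentile of 359 probe sets of olfactory receptor genes, 5.71, served as a guide to background. ELK3 itself read 10.85 and 10.82 in the control arrays, against 8.34 and 8.33 in the ELK3 shRNA arrays, giving a log2 difference of -2.50 ± 0.07 (SE, limma adjusted p = 3.57e-05). At an adjusted p under 0.05 from limma, 49.5% of 18132 genes differed between the groups, with 26.0% up and 23.5% down in the ELK3 KD arrays, and 5.51% differed by over 2 in size on the log2 scale. All counts of members below are to be read against these shares. Of 10 markers of MDA-MB-231 and similar mesenchymal breast cells, all were above the background guide in control cells and 8 in ELK3 KD cells. In ELK3 KD cells 9 were lower, among them AXL, S100A6, LGALS1 and CD44. The mean of the list was 11.67 to 11.71 in control and 8.25 to 8.34 in ELK3 KD arrays. Of 11 markers of HEK293, the parent of many retroviral packaging lines, 7 were higher and 0 lower, with 6 above the background guide in control and 9 in ELK3 KD cells (list mean 5.70 to 5.88 in control and 8.10 to 8.16 in ELK3 KD arrays). Of 3 genes at 9p21, a region known to be deleted in MDA-MB-231, 2 were higher and 1 lower. CDKN2A stood at a mean of 4.85 in control and 11.38 in ELK3 KD cells, and CDKN2B at 3.03 and 6.97. MTAP was the gene that was lower, at 6.81 in control and 6.37 in ELK3 KD cells (limma adjusted p = 0.0201). It thus read above the background guide in both groups, the control arrays included. AXL read 11.98 and 11.95 in the control arrays, against 4.38 and 4.08 in the ELK3 shRNA arrays, and NEFL, a neurofilament gene among the HEK293 markers, read 3.47 and 3.26 against 10.98 and 10.92. The ELK3 shRNA arrays thus go against their cell line label in the level of most of these markers, although 8 of the 10 markers of the line stayed above the background guide. The control arrays hold all 10. Of 8 markers of luminal breast cells, 4 were higher in ELK3 KD cells and 0 lower. FOXA1 stood at a mean of 3.52 in control, below the background guide, and 7.62 in ELK3 KD cells. GATA3 stood at 5.85 and 6.9. The paper reports that suppressing ELK3 turned these cells from a mesenchymal to an epithelial phenotype and activated GATA3. The part of these marker differences in the results that follow was not tested.

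Of the 8 genes, 4 passed the test in ELK3 KD cells, 2 upward and 2 downward, which is 25% in each direction and near the shares of all genes. EGR1 and EGR3 rose, NR4A2 and IER3 fell, and NR4A1, NR4A3, IER2 and IER5 did not pass. EGR3 was called at a probe set that was its brightest only through the ELK3 shRNA arrays. The median difference of the 8 genes was -0.06 on the log2 scale, against -0.05 over all genes. The values of the 2 groups did not overlap for 7 of the 8 genes, against 76.2% of all genes. In bulk RNA, fewer cells that express a gene and less RNA per cell cannot be told apart.

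**Figure D1:**
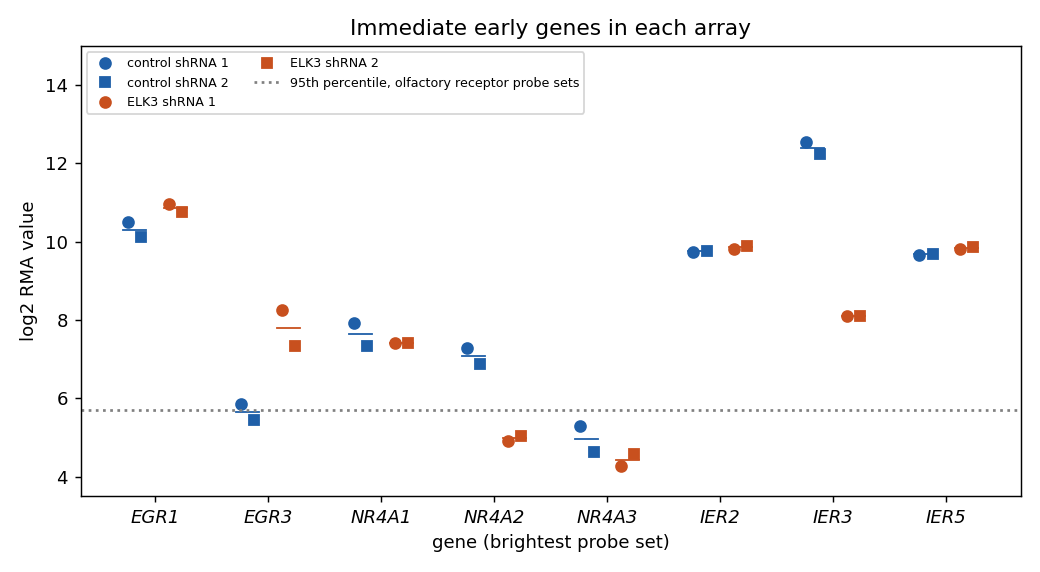
Log2 RMA value (y axis) of the brightest probe set of each gene (x axis) in 2 control shRNA arrays (blue) and 2 ELK3 shRNA arrays (orange), with circles for replicate 1, squares for replicate 2, short lines for group means and a dotted line at 5.71, the background guide from olfactory receptor genes. IER3 lies above 12 in both control arrays and near 8.10 in both ELK3 shRNA arrays, and only NR4A1 overlaps between the groups. Levels of different probe sets cannot be compared with each other.

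EGR1, the zinc finger factor most widely used as a readout of ERK and SRF activity, rose by a small amount. Its brightest probe set (11754334_s_at) read 10.49 and 10.12 in the control arrays, against 10.96 and 10.75 in the ELK3 shRNA arrays. Both ELK3 shRNA arrays were above both control arrays, although the lower ELK3 shRNA value and the higher control value were close. The log2 difference was 0.55 ± 0.15 (SE, limma adjusted p = 0.0352), a 1.46-fold higher value. The probe set with the largest difference (11717860_a_at) read 9.17 and 8.76 in the control arrays, against 10.18 and 9.83 in the ELK3 shRNA arrays, giving a log2 difference of 1.04 (limma adjusted p = 0.00793 over probe sets). All 6 probe sets of EGR1 were higher, by 0.20 to 1.04, and 5 of them were called. The call at the brightest probe set did not hold without control replicate 2 (0.36, adjusted p = 0.102), without ELK3 shRNA replicate 1 (0.44, adjusted p = 0.193) or without ELK3 shRNA replicate 2 (0.65, adjusted p = 0.0936). Where probe sets ending in _s_at or _x_at were left out, EGR1 was read from the probe set at 1.04.

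EGR3, a close relative of EGR1 in its zinc fingers, rose at 1 of its 4 probe sets. That probe set (11736342_at) read 5.85 and 5.44 in the control arrays, against 8.26 and 7.34 in the ELK3 shRNA arrays, giving a log2 difference of 2.16 ± 0.33 (SE, limma adjusted p = 0.00466). The ELK3 shRNA arrays stood 0.92 apart but both lay above both control arrays, and the control mean was below the background guide, which limits the size of the rise. The other probe sets gave -0.02, -0.19 and -0.23, none of them called, and 2 of these 3 lay below the background guide in both groups. The probe set that rose was the brightest of the 4 only through the ELK3 shRNA arrays. In control cells 11747812_a_at, which gave -0.02, had the higher mean (5.96 against 5.64). The gene-level call of EGR3 thus rests on a probe set chosen in part by the group where it was high. Averaged over the 4 probe sets, the difference was 0.43 (limma adjusted p = 0.0282). Without control replicate 2 the adjusted p of the brightest probe set was 0.05004. EGR4, chosen with its values known, read 4.26 and 4.10 against 4.16 and 4.22 (limma adjusted p = 0.971), below the guide in both groups.

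NR4A2 (NURR1), a nuclear receptor best known from dopaminergic neurons and also an immediate early gene of many other cells, fell. Its brightest probe set (11725631_a_at) read 7.27 and 6.88 in the control arrays, against 4.91 and 5.05 in the ELK3 shRNA arrays, giving a log2 difference of -2.10 ± 0.15 (SE, limma adjusted p = 0.000409). Another (11747474_a_at) read 6.87 and 6.66 against 4.14 and 4.64, and the last (11725632_at) 6.69 and 5.88 against 3.95 and 3.86. All 3 were lower without overlap, with log2 differences of -2.37 and -2.38 for the latter pair (adjusted p = 0.000512 and 0.00155 from limma over probe sets). In each of the 3, the mean of the ELK3 KD arrays lay below 5.71, so background limits the size of the fall.

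The other NR4A receptors did not pass the test at their brightest probe sets. NR4A1 (NUR77), which binds DNA as a monomer or a dimer and is induced by growth factors, read 7.92 and 7.34 in the control arrays, against 7.42 and 7.41 in the ELK3 shRNA arrays at its brightest probe set (11717995_x_at). The ELK3 shRNA values lay between the control values. The log2 difference was -0.21 ± 0.20 (SE, limma adjusted p = 0.414). None of its 7 probe sets was called, with differences of -0.47 to 0.02. Control replicate 1 was the higher control array in 6 of them, and at a second probe set (11717994_a_at) the control arrays stood 1.06 apart, at 8.11 and 7.05, against 7.22 and 7.11 in the ELK3 shRNA arrays. Without control replicate 2 the difference of NR4A1 was -0.50 (limma adjusted p = 0.0162) and without control replicate 1 it was 0.07 (adjusted p = 0.442), so 1 control array decided both the call and the direction.

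NR4A3 (NOR1) lay under the background guide in both groups at all 3 of its probe sets. The brightest (11741705_at) read 5.30 and 4.63 in the control arrays, against 4.27 and 4.59 in the ELK3 shRNA arrays, giving a log2 difference of -0.54 ± 0.25 (SE, limma adjusted p = 0.132) that passed only without control replicate 2 (-0.87, adjusted p = 0.034). Another (11729058_s_at) read 4.14 and 3.97 in the control arrays, against 4.51 and 4.45 in the ELK3 shRNA arrays, and was called higher at 0.42 (limma adjusted p = 0.0165 over probe sets). With opposite signs at values this low, no direction can be given for NR4A3.

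IER3 showed the largest difference of the 8 genes. Its single probe set (11720062_s_at) read 12.55 and 12.23 in control arrays and 8.10 and 8.10 in ELK3 KD arrays. Both ELK3 shRNA arrays were far below both control arrays, and all 4 values stood well above the background guide. The log2 difference was -4.30 ± 0.12 (SE, limma adjusted p = 3.77e-05), a 19.6-fold lower value. Only 71 of 18132 genes had a more negative difference. Its adjusted p remained under 0.05 in each of the alternatives that held a probe set for it, at differences of -4.46 to -4.13. The probe set name ends in _s_at, which marks probes that can also match other transcripts, and no second probe set of IER3 was at hand to set beside it.

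IER2 and IER5 did not pass the test. IER2, whose protein is found in the nucleus and is linked to cell motility, read 9.74 and 9.77 in the control arrays, against 9.81 and 9.90 in the ELK3 shRNA arrays, a difference of 0.10 ± 0.08 (SE, limma adjusted p = 0.333). IER5, a cofactor known to bring the phosphatase PP2A to heat shock factor 1, read 9.65 and 9.70 in the control arrays, against 9.80 and 9.86 in the ELK3 shRNA arrays at its brighter probe set (11716629_at). Its difference was 0.16 ± 0.07 (SE, limma adjusted p = 0.145), and its second probe set gave 0.20 (limma adjusted p = 0.0900 over probe sets). For both genes the ELK3 shRNA values lay just above the control values without overlap, as 76.2% of all genes did not overlap, and the difference did not pass the test.

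**Figure D2:**
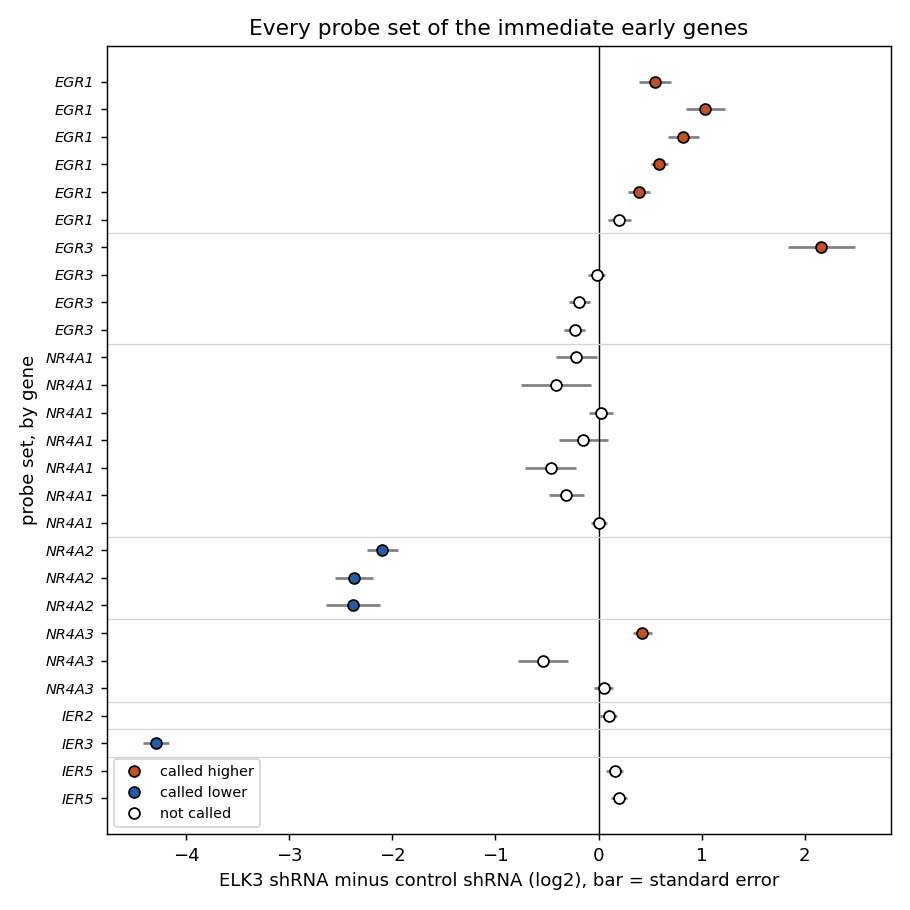
Difference between ELK3 shRNA and control shRNA arrays on the log2 scale (x axis) for each of the 27 probe sets (y axis, by gene), with standard errors as bars, orange for probe sets called higher, blue for those called lower and white for those not called at an adjusted p under 0.05 from limma over probe sets. All 6 probe sets of EGR1 lie right of zero and all 3 of NR4A2 left of it, whereas 1 of 4 probe sets of EGR3 carries its rise.

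Taken 1 by 1, 7 of the 27 probe sets were higher and 4 lower, against 24.6% higher and 24.3% lower (48.9% in either direction) of all 44988 probe sets. Of the 27, 14 differences were positive and 13 negative, and 20 did not overlap between the groups, against 75.8% of all probe sets. Both group means were below the background guide for 6 probe sets, namely 2 of EGR3, 1 of NR4A1 and all 3 of NR4A3. Probe sets of 1 gene share a target gene and are not replicates.

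The arrays of a group also differed in these genes. Control replicate 1 was above control replicate 2 in 22 of the 27 probe sets (81.5%), with a median gap of 0.25 on the log2 scale and a range of -0.14 to 1.06. Over all probe sets control replicate 1 was the higher array in 48.0%, and the median size of the gap was 0.13. The widest gaps were those of NR4A1 and NR4A2 probe sets. Between the ELK3 KD arrays, replicate 1 was higher in 16 of 27 probe sets, with a median size of 0.09 against 0.09 over all probe sets. Among 44 other immediate early genes control replicate 1 was higher in 27, and among all genes in 51.8%. With control replicate 1 as the only control array, NR4A1 and NR4A3 passed as lower, and EGR1 and EGR3 missed the threshold.

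**Figure D3:**
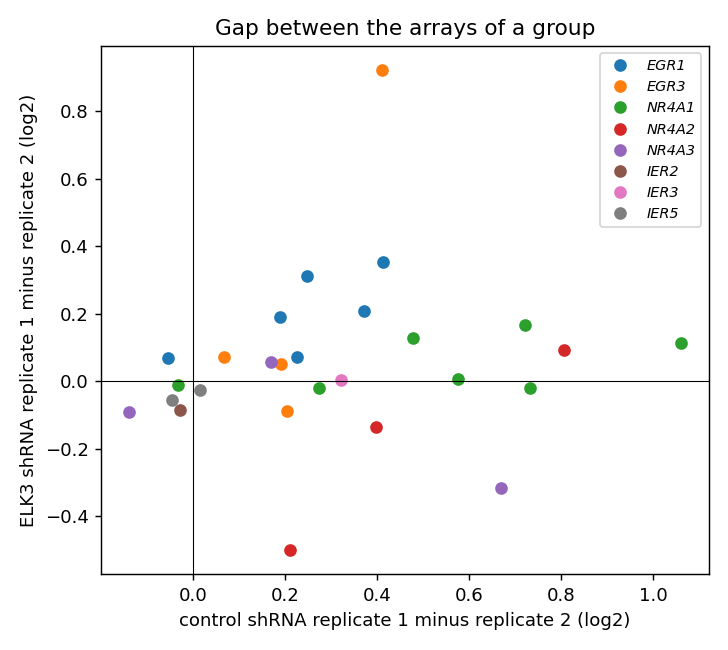
Gap between replicates 1 and 2 on the log2 scale for each of the 27 probe sets, with the control shRNA arrays on the x axis, the ELK3 shRNA arrays on the y axis and 1 colour per gene. In the control arrays 22 of 27 points lie right of zero, up to 1.06 for a probe set of NR4A1.

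Most of the other serum-induced immediate early genes outside AP-1 were lower. Of 44 such genes, 29 fell, 6 rose and 9 did not pass at an adjusted p under 0.05 from limma, which is 65.9% lower and 13.6% higher against 23.5% and 26.0% of all genes, and the median difference was -0.88. The largest falls were those of PHLDA1, a pleckstrin homology-like protein induced through ERK, DUSP6, a phosphatase that switches off ERK, F3, the tissue factor of coagulation, and DUSP5, a nuclear ERK phosphatase. PHLDA1 read 11.71 and 11.50 in the control arrays, against 4.74 and 4.93 in the ELK3 shRNA arrays. DUSP6 read 10.37 and 10.44 against 5.01 and 5.31. F3 changed by -5.23 (limma adjusted p = 1.66e-05) and DUSP5 by -3.41 (adjusted p = 5.5e-05). In PHLDA1 and DUSP6 the ELK3 shRNA mean lay below the background guide. Both group means lay below the guide in 3 of the 44 genes, some of which are counted among the falls. Rises were seen in ID3, which blocks helix-loop-helix factors (1.45, limma adjusted p = 0.00154), and TRIB1, a pseudokinase (1.39, limma adjusted p = 0.00097), both chosen with their values known. With 1 of the 4 arrays left out, the count that fell was 24 to 29. Whether these 44 genes and the 8 members differ in direction was not tested. Of 36 of these 44 genes that had a promoter window, 0 held a CArG box. Only exact matches within the window were counted, so this does not show that these genes lack SRF sites. Over all genes with a window, 251 held one, of which 21.9% were higher and 26.3% lower, against 26.5% and 24.1% of 14425 genes with any window.

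**Figure D4:**
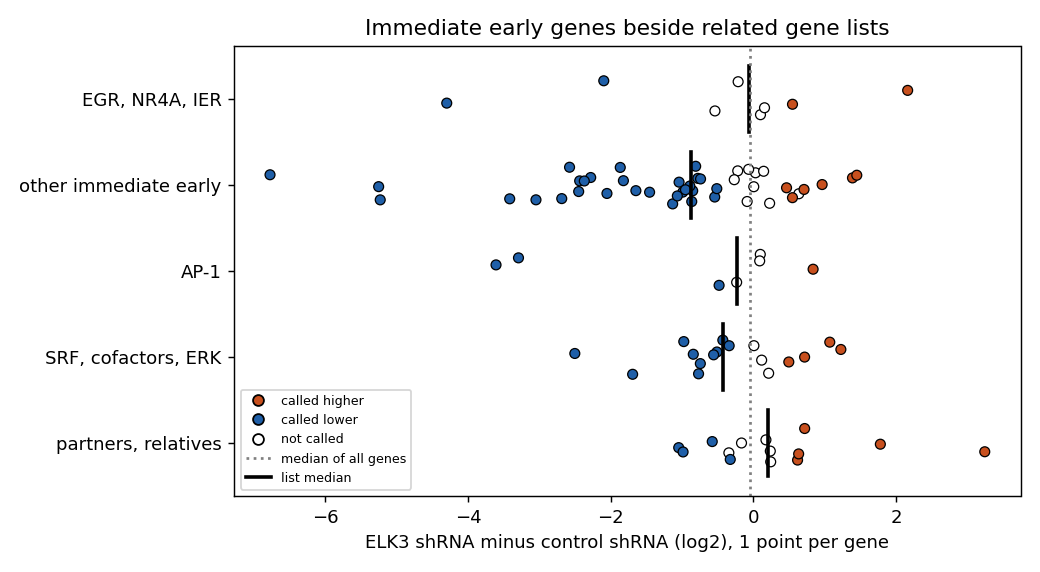
Difference between ELK3 shRNA and control shRNA arrays on the log2 scale (x axis), 1 point per gene, for the 8 EGR, NR4A and IER genes and 4 related lists (y axis), with a black bar at each list's median, a dotted line at the median of all genes, and orange, blue and white for genes called higher, called lower and not called. The median of the 44 other immediate early genes lies at -0.88, that of the 8 genes at -0.06.

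Among the 7 AP-1 genes, which are induced by serum alongside EGR1, 3 fell, 1 rose and 3 did not pass. That is 42.9% lower and 14.3% higher, against 23.5% and 26.0% of all genes. FOSL1 read 9.32 and 9.41 in the control arrays, against 5.62 and 5.90 in the ELK3 shRNA arrays, and FOSL2 read 9.12 and 8.98 against 5.84 and 5.68. FOS changed by -0.48 (limma adjusted p = 0.0161) and JUN by 0.84 (adjusted p = 0.0012). FOS, whose promoter carries the classic CArG box, fell and EGR1 rose, both by under 1 on the log2 scale at the brightest probe set. The call of EGR1 did not hold in every setting, as given above.

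Of 17 measured genes of SRF, its cofactors and the ERK cascade, which act upstream of the members, 10 fell and 4 rose. These shares were 58.8% lower and 23.5% higher, against 23.5% and 26.0% of all genes. The falls included ELK3 itself and RPS6KA4, an ERK-activated kinase of histone H3 (-1.69, adjusted p = 0.000222 from limma). The rises included MRTFB, an SRF cofactor regulated by actin (1.22, adjusted p = 0.00097), and MAPK3, the gene of ERK1 (1.07, adjusted p = 0.00186). SRF, chosen with its values known, read 9.18 and 9.33 in the control arrays, against 8.18 and 8.38 in the ELK3 shRNA arrays, a difference of -0.98 on the log2 scale (limma adjusted p = 0.00147). The other ternary complex factors, chosen likewise, were ELK1 at -0.43 (adjusted p = 0.0143) and ELK4 at 0.01 (adjusted p = 0.97), the latter below the background guide.

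Of 14 partners and relatives of the listed genes, 5 rose and 4 fell (35.7% and 28.6%, against 26.0% and 23.5% of all genes). NAB1, a corepressor that binds EGR1 and EGR3, changed by -1.05 (limma adjusted p = 0.000436). TOB1, an antiproliferative relative of BTG2, read 8.61 and 8.69 in the control arrays, against 10.42 and 10.44 in the ELK3 shRNA arrays, and CNOT7, the deadenylase that BTG and TOB proteins bind, changed by -0.99 (adjusted p = 0.000633). PPP2R2B, of the B55 family of PP2A subunits, the family that IER5 binds, rose from a mean of 2.87 to 6.11, the former below the background guide. RXRA and RXRB, with which NR4A1 and NR4A2 form dimers, were also chosen with their values known and changed in opposite directions, at 0.62 (adjusted p = 0.00652) and -0.58 (adjusted p = 0.00293).

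Immediate early genes respond to handling of cells, so heat shock genes and RNA quality were read from the same arrays. Of 13 heat shock and handling stress genes, 9 fell and 1 rose (69.2% and 7.69%, against 23.5% and 26.0% of all genes). The share that fell was thus near that of the 44 other immediate early genes, 65.9%. The gene that rose was HSPA1B, which read 10.00 and 9.97 in the control arrays, against 11.98 and 12.11 in the ELK3 shRNA arrays, and whose probes can also read its near-identical copy HSPA1A. HSPE1 changed by -1.02, HSPH1 by -0.73 and BAG3 by -0.67. The log2 difference between 3′ and 5′ control probe sets was -0.14 and -0.13 for GAPDH in control, against -0.18 and -0.19 in ELK3 shRNA arrays. For ACTB it was 0.05 and 0.03 against -0.01 and -0.07, so for both controls it was lower in both ELK3 shRNA arrays. The part of heat shock and of RNA quality in the values of the members was not tested.

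**Figure D5:**
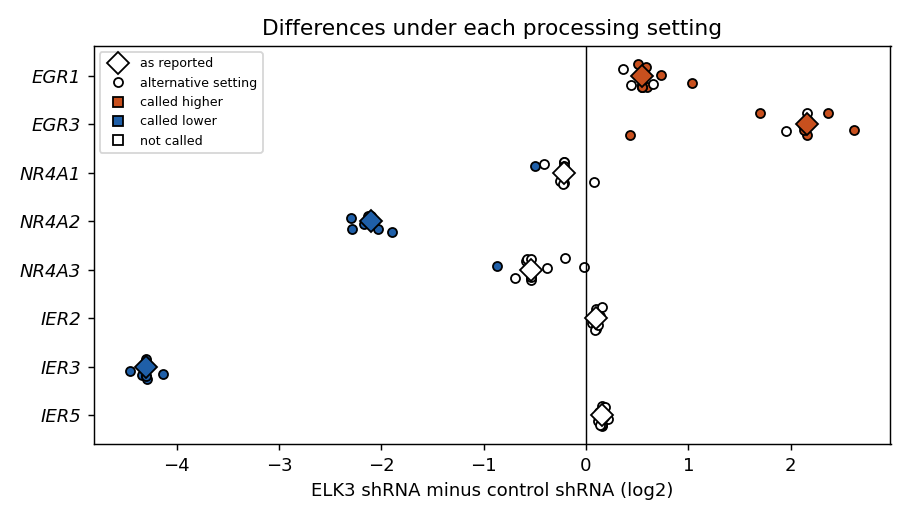
Difference between ELK3 shRNA and control shRNA arrays on the log2 scale (x axis) for each of the 8 genes (y axis), as reported (diamonds) and under each alternative setting (circles), with orange for called higher, blue for called lower and white for not called. IER3 stays between -4.46 and -4.13 and NR4A2 between -2.30 and -1.90, EGR3 runs from 0.43 to 2.62, and NR4A1 reaches both sides of zero.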

How the data were processed

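The deposited values were log2 values of 49395 probe sets on 4 arrays, made by the authors with RMA in Affymetrix Expression Console (version not given in the sources used here), with background correction, quantile normalization and summary per probe set. An Illumina BeadChip is named in the paper's methods, but the identifiers are Affymetrix ones. RMA compresses low values, and quantile normalization hides a change in total RNA per cell.

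Gene names came from the platform's annotation table and were updated from RefSeq (GRCh38.p14) by gene identifier, which matched 44961 of 44988 probe sets. Each gene was read from its brightest probe set. The comparison used lmFit and eBayes of limma 3.58.1 (R 4.3.3) without a block or a filter, with Benjamini-Hochberg adjustment at 0.05 over 18132 genes, and again over 44988 probe sets. The fit was also run on simulated data, in which far fewer genes differed than the 49.5% called here. That run therefore cannot vouch for calls at this share. Alternatives were other summaries of probe sets, a filter on dim genes, other normalizations and variance priors, a replicate block, each array left out, and the methods' t-test. Figures were drawn with matplotlib 3.10.9.

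The members and lists were chosen with earlier results of these data known. Named were all members, ELK3 and, from the other lists, up to 4 called genes with the largest difference, or the 2 brightest where fewer than 2 were called. Genes outside that rule are marked. Of the marker lists for fibroblasts, leukocytes and luminal cells, 3 of 8, 1 of 7 and 4 of 8 genes were higher and 1, 1 and 0 lower. Listed genes that lacked a probe set of their own were not analysed here.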

Additional observations from a re-analysis of the deposited data

How the results depend on the processing

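The falls of IER3 and NR4A2 kept their direction and their call wherever they could be computed. Of the 8 genes, 2 were higher and 2 lower as reported. The methods' t-test with Benjamini-Hochberg adjustment called 0 higher (EGR1 adjusted p = 0.21, EGR3 adjusted p = 0.112), and 3 of the 8 genes at an unadjusted p under 0.05, against 4 by limma. With 1 array left out, 0 to 2 were higher and 2 to 4 lower. Among genes above the median level, and without probe sets ending in _s_at or _x_at, 1 gene was lower, since NR4A2 and IER3 respectively were not among those tested. Counted as probe sets, 2 to 7 were higher and 4 to 11 lower with 1 array left out, and 1 was lower among probe sets above the median level, where NR4A2 was not tested. Over all genes, the methods' t-test called 2576 higher and 2086 lower, against 4715 and 4256 by limma. With 1 array left out the counts were 3080 to 4388 higher and 2430 to 3976 lower, lowest without ELK3 shRNA replicate 1.

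Differences near zero changed sign. With 1 array left out, NR4A1 ran from -0.502 to 0.074 at its brightest probe set, from -0.94 to 0.12 at 11717994_a_at, from -0.51 to 0.22 at 11749726_x_at, from -0.11 to 0.16 at 11749725_a_at and from -0.0103 to 0.0228 at 11760979_at. EGR3 ran from -0.055 to 0.0172 at 11747812_a_at and NR4A3 from -0.0176 to 0.122 at 11741458_a_at. With each array centred on its median, 11749725_a_at gave -0.0179 and 11760979_at gave -0.0365, and with quantile normalization again the former gave -0.014. None of these was called as reported.

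The correlation of same-numbered deviations was 0.0151 over 44988 probe sets. A value over all probe sets cannot tell whether the members share a replicate effect. With the replicate block the SE went from 0.15 to 0.09 for EGR1 and from 0.33 to 0.155 for EGR3. It went from 0.15 to 0.16 for NR4A2 and from 0.25 to 0.27 for NR4A3. Under the replicate block the members' counts were again 2 higher and 2 lower, with 4347 higher and 3785 lower over all genes. Centring or normalizing again moved the median of all genes from -0.05 to -0.09 or -0.06. Where a group mean lies below 5.71, background limits the size of a difference, as for NR4A2, NR4A3 and EGR3.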
